A study of Mus musculus with 208 samples.

Results

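Gm26917 and Gm42418 are noncoding genes of the ribosomal-repeat-like stretch of mouse chromosome 17, and in each brain region of these neuronal RNA-seq libraries their rows had the highest median shares of the counts. They were chosen by that high share of library counts, which earlier results of these data had shown, so their levels by brain region are given as a description with no test. They are 2 of the 46403 rows of each count table. No row carried the name Gm42418, and RefSeq lists Gm42418 as a synonym of Rn18s-rs5, so the row Rn18s-rs5 was read as Gm42418 throughout and is called Gm42418 (row Rn18s-rs5). That name rests on the RefSeq synonym, since which bases the authors counted for the row was not given in the sources used here.

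The study asked how morphine before and after birth changes the adult neuronal transcriptome, at rest and after an immune challenge. Wild-type C57BL/6NTac dams carried minipumps with morphine sulfate (10 mg/kg per day) or saline during gestation, and all pups, control pups included, were raised by surrogate dams that had received no drug. The pups then received morphine (10 mg/kg under the skin, in the morning and again in the afternoon) or saline until postnatal day 14, and as adults, whose age the labels do not give, 1 injection of lipopolysaccharide (LPS, a bacterial cell wall component that triggers inflammation) or saline. Tissue was taken 2 h later, so that the group MOR-LPS, for example, had perinatal morphine and adult LPS, and its counterparts were MOR-SAL, SAL-LPS and the control SAL-SAL. Nuclei that carried NeuN, a marker of neurons, were sorted from the hippocampus, hypothalamus, prefrontal cortex (PFC) and striatum, and about 5000 nuclei of 1 animal and 1 region made 1 library. There were 208 libraries, with 8 to 18 per group and region. The labels name a replicate by a pair of numbers, such as 1-0, and each of the 71 names, which had 1 sex and 1 condition in every region, was read as 1 animal. The 18 first numbers were 8 with saline and 10 with morphine exposure. What they stand for is not given in the sources used here, and 17 of the 18 held labels of 1 sex only.

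Ribosomal RNA is made from repeated genes in the nucleolus. RNA polymerase I transcribes each repeat into a long precursor that starts with an external spacer, followed by the small-subunit rRNA, an internal spacer and the large-subunit parts. The spacers are cut away in the nucleus, so nuclear RNA holds precursor and spacer pieces as well as mature rRNA. The rRNA repeats proper are hard to assemble, and reads from them can align to partial copies elsewhere in a genome, such as the stretch on chromosome 17.

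The sequences place both genes in that stretch of mm10 (GENCODE M21 models). Gm26917 (ENSMUSG00000097971) is a lincRNA on the plus strand at chr17:39843013-39846341, with 2 annotated transcripts, the longer one a single exon of 3329 bases. Gm42418 (ENSMUSG00000098178) is a single-exon lincRNA of 1831 bases on the plus strand at chr17:39846958-39848788. RefSeq's Rn18s-rs5, a pseudogene of small-subunit rRNA, spans chr17:39846354-39848202, begins 12 bases after the last base of Gm26917 and shares 1245 bases with Gm42418. The first and last 120 bases of Gm26917, the first 120 bases of Gm42418 and a stretch of mt-Rnr1, the small-subunit rRNA of mitochondria, are shown 5′ to 3′ from the GENCODE transcripts. Capitals mark the letters GTGCCAGC and CCGCGGT with 2 bases between them, a stretch that small-subunit rRNAs share.
Gm26917, chr17:39843013-39843132, plus strand: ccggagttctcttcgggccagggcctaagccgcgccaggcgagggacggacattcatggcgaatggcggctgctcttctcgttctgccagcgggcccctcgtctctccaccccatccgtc
Gm26917, chr17:39846222-39846341, plus strand: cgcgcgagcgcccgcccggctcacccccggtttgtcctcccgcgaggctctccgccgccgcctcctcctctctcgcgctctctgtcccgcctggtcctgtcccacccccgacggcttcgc
Gm42418, chr17:39846958-39847077, plus strand: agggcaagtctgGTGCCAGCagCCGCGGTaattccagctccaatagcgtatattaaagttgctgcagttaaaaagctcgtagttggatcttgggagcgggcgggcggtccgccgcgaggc
mt-Rnr1, bases 225 to 266: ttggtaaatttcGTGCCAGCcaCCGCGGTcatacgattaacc

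Of 141767 transcripts searched, only Gm42418 (bases 13 to 29) and mt-Rnr1 (bases 237 to 253) held that letter pair on the sense strand, which is 0.00141% of them, and 1 transcript, of the minus-strand rRNA gene CT010467.1, held it in reverse. Gm26917 held none. Its longer transcript was 69.1% G and C, above 99.8% of all transcripts (median 49.2%), and Gm42418 was at 60.2%, above 94.9%. The longest run of A was 4 bases in Gm26917 and 6 in Gm42418, against a median of 5 over all transcripts. The labels call the molecule polyA RNA.

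Neighbouring models share bases with Gm42418. CT010467.1, on the other strand, covers all 1831 bases of its span, and AY036118, also on the other strand, lies inside it with 923 bases that matched in reverse at 100% identity (BLAST). Neither has a row in the tables, and whether counting used strand was not given in the sources used here, so reads from these partners cannot be told apart from those of Gm42418. The transcript CT010467.1-201, of 1849 bases at chr17:39846353-39848201 on the minus strand, is offset by 1 base from the interval of Rn18s-rs5, so the row Rn18s-rs5 may hold reads of either interval and cannot be assigned to 1 of these models. Gm26917 had no match to any other transcript. The nearest same-strand match of Gm42418 was 68 bases of Slc22a19 at 83.8% identity.

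Total counts ran from 7673 to 92945090 per library, with a median of 9176574. Of all libraries, 8 had less than 0.5 of their region's median total, and 9 carried Y-linked counts that go against the labelled sex (4 in the hippocampus, 3 in the hypothalamus and 2 in the PFC). Values without these libraries are given where they changed a call or a direction of the 2 genes, or moved a count of calls by more than 1.5 times. No 2 libraries held identical counts. Neuronal markers (Rbfox3, Snap25, Syt1, Map2, Grin1) summed to 1259 to 10432 per 1e6 other counts, against 0 to 228 for microglia, 0 to 1717 for astrocytes and 64.6 to 7757 for oligodendrocytes. Here and below, per 1e6 other counts means relative to the library total without the 2 ribosomal rows.

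Gm26917 was the row with most reads in each region by median share of the library total. In the hippocampus it took 1.45% to 20.2% of a library (median 5.43%, n = 55). In the hypothalamus it took 6.91% to 41.4% (median 15.5%, n = 51). In the PFC the range was 1.56% to 11.9% (median 4.58%, n = 48), and in the striatum 1.13% to 21.2% (median 4.81%, n = 54). The hypothalamic median was the highest, and the other 3 regions overlapped over most of their ranges.

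Gm42418 (row Rn18s-rs5) came second by median in each region. It took 0.167% to 4.10% in the hippocampus (median 0.865%), 0.890% to 6.70% in the hypothalamus (median 2.20%), 0.314% to 30.9% in the PFC (median 2.41%) and 0.0645% to 3.49% in the striatum (median 0.670%). The PFC thus had the highest median and by far the widest range. The third row by median was Kcnip4 in the hippocampus at 0.4656%, Meg3 in the PFC at 0.531% and Nrxn3 in the striatum at 0.593%. Meg3, an imprinted neuronal noncoding RNA, reached 1.53% in the hypothalamus and was the only other row with a median of at least 1% in any region.

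**Figure D1:**
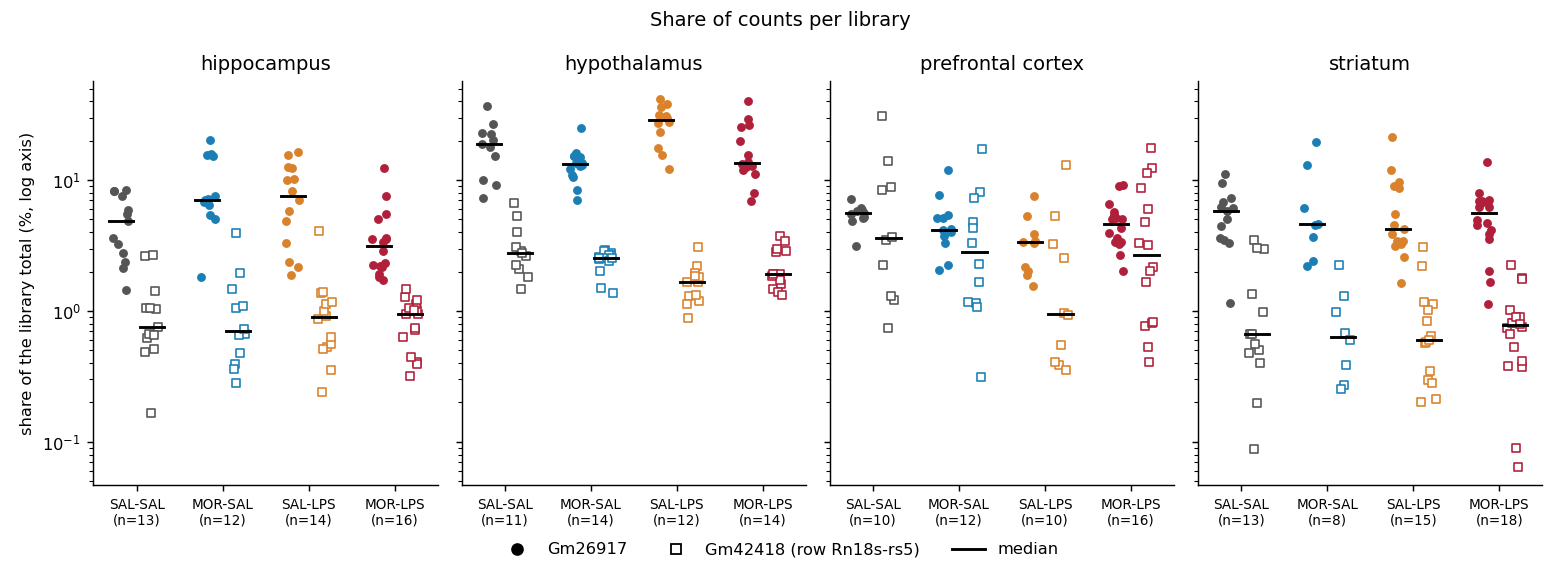
Share of each library's counts on Gm26917 (filled circles) and Gm42418 (open squares, row Rn18s-rs5) on a log axis in percent, by region and group, with black lines at the medians. Gm26917 sits highest in the hypothalamus (6.91% to 41.4%), and Gm42418 spreads most in the PFC (0.314% to 30.9%).

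Gm26917 was the top row of 191 of the 208 libraries and Gm42418 of the other 17, and in 133 libraries both were the top 2 rows. Of those 17, 14 were PFC libraries. Gm26917 never ranked below 3, whereas Gm42418 fell as low as rank 225, in a striatal library. The pair together took more than 10% of the counts in 84 libraries and more than 25% in 18, of which 16 were hypothalamic and 2 from the PFC. Counting error was small beside this spread: the widest exact 95% binomial interval of a Gm26917 share had a half-width of 1.08 percentage points, in the SAL-LPS hypothalamic library of 7673 counts. Intervals cover counting error only, since PCR copies are not independent molecules.

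The highest libraries show how far the pair could go. Hypothalamic SAL-LPS animal 1-0 had 14507880 of its 35077048 counts on Gm26917, which was 41.4%, and a summed share of 42.7%. Hypothalamic MOR-LPS animal 6-2 and SAL-LPS animal 3-3 followed at 41.3% and 41.2%. The PFC library of SAL-SAL animal 10-3 reached 37.03% in another way, with 30.9% on Gm42418 and 6.14% on Gm26917.

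The same SAL-SAL animal had lower shares elsewhere, with summed shares of 4.27% in the hippocampus, 26.9% in the hypothalamus and 3.898% in the striatum. MOR-SAL animal 17-2 was high in each region it had a library from: 22.1% in the hippocampus, the highest there, 25.02% in the PFC and 15.3% in the striatum. Its hippocampal library is among those whose Y-linked counts go against the label. The lowest summed share, 1.22%, was in the deepest library, striatal MOR-LPS animal 17-3 with 92945090 counts.

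Of the 18 animals with libraries from all 4 regions, the summed share was highest in the hypothalamus in 16 and in the PFC in 2. The hypothalamus exceeded the hippocampus in 37 of 38 animals that had both, with a median gap of 12.2 percentage points. It exceeded the striatum in 36 of 37. The hippocampus exceeded the striatum in 22 of 42, with a median gap of 0.273 points, so that neighbouring pair did not separate.

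The hypothalamic table differed from the rest in which rows hold counts, which touches every comparison of shares with it. How that difference arose was not tested. Of 12491 rows with a median of at least 5 CPM there, 1480 were at 0 in all libraries of the other regions, and they held a median of 3.73% of hypothalamic counts. Of the 1104 such rows with a position, 95.8% lay wholly inside the span of another gene, against 0.517% of the 10632 others. Genes that span more than 100 kb took a median of 24.6% of the other counts in the hypothalamus, and 55.3%, 52.4% and 61.6% in the hippocampus, PFC and striatum. The region and this difference between the tables cannot be told apart for the hypothalamic share. Over only the rows counted in all regions, the hypothalamic summed share had a median of 18.7%, beside 17.9% over all rows.

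The balance of the 2 genes differed by region. The median log2 ratio of Gm26917 to Gm42418 was 2.91 in the hippocampus, 2.77 in the hypothalamus, 2.93 in the striatum and 0.74 in the PFC. The shares of the 2 genes rose together over striatal and PFC libraries (Spearman rho 0.694 and 0.525), barely so in the hippocampus (0.198), and went opposite ways in the hypothalamus (-0.443). These correlations over 48 to 55 libraries are descriptions, since both shares are parts of one total.

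**Figure D2:**
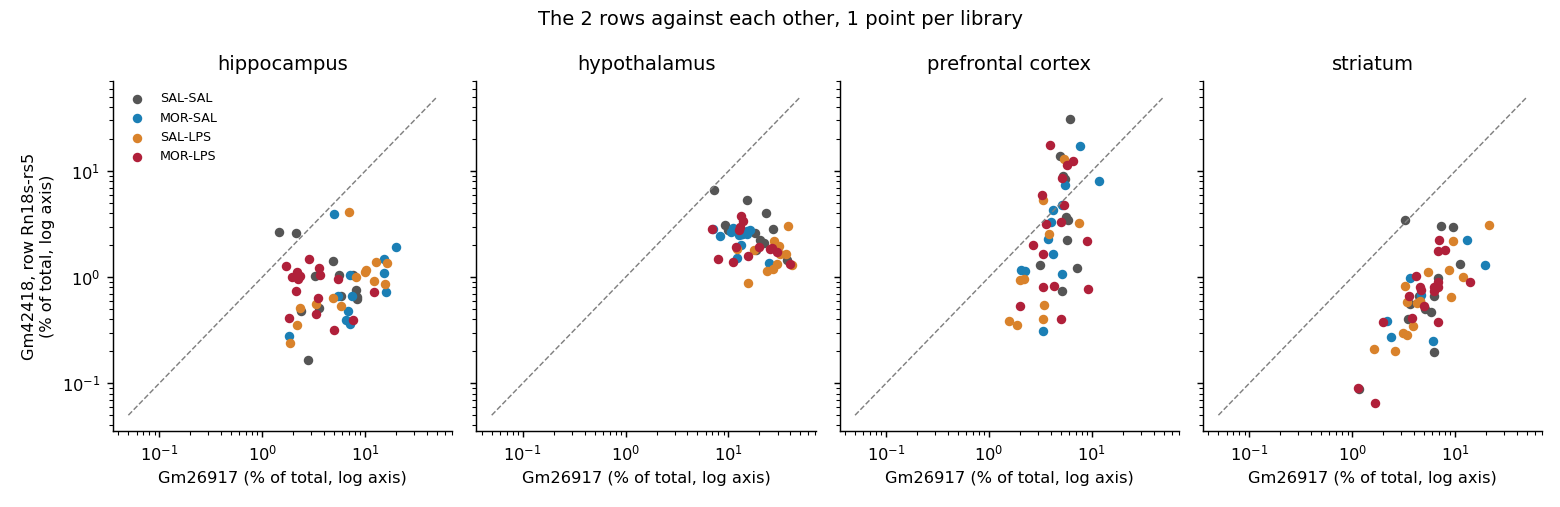
Each point is 1 library, with the Gm26917 share on the x axis and the Gm42418 share (row Rn18s-rs5) on the y axis, both in percent of the library total on log axes, coloured by group. The dashed line marks equal shares. Most points lie below it, and 14 PFC libraries lie above it.

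Perinatal morphine and LPS were compared within each region in edgeR, on raw counts scaled by TMM (trimmed mean of M-values), with group and sex in the model. Of 32 member contrasts, 0 passed an adjusted p of 0.05 (Benjamini-Hochberg over all rows tested). Unadjusted p was under 0.05 in 11 of them, 8 of 16 for Gm26917 and 3 of 16 for Gm42418. The contrasts of a region share groups, so their values are set side by side and are not independent.

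In the hippocampus, the Gm26917 share had its lowest median after both treatments. It ran from 1.45% through a median of 4.89% to 8.37% in SAL-SAL (n = 13) and from 1.82% through 7.10% to 20.2% in MOR-SAL (n = 12). In SAL-LPS it ran from 1.87% through 7.61% to 16.3% (n = 14), and in MOR-LPS from 1.72% through 3.12% to 12.3% (n = 16). All groups overlapped. The fitted log2FC was 1.03 (SE 0.38, adjusted p = 0.221) for MOR-SAL vs SAL-SAL and 0.81 (SE 0.37, adjusted p = 0.224) for SAL-LPS vs SAL-SAL in edgeR. It was -1.14 (SE 0.35, adjusted p = 0.0550) for MOR-LPS vs SAL-LPS and -1.36 (SE 0.37, adjusted p = 0.0582) for MOR-LPS vs MOR-SAL.

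The LPS response of hippocampal Gm26917 differed between the exposures, the only call for either gene. The difference of the responses, morphine minus saline, was -2.17 (SE 0.52, edgeR adjusted p = 0.0141). It was not called when rows of low count were left out by edgeR's filterByExpr rule (-2.16, adjusted p = 0.298), in DESeq2 (-2.18, adjusted p = 0.201), with the first label number as a replicate block in edgeR (-2.16, adjusted p = 0.349) or without the libraries that go against their labelled sex (-1.65, edgeR adjusted p = 0.0860). The value stayed near -2.2 in the first 3 of these and the unadjusted edgeR p was 0.000120 after filterByExpr. Of the 519 rows called in that comparison by the fit without filterByExpr, 418 averaged under 2 counts per library, and after filterByExpr 0 were called.

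No glial marker was called in that difference of responses in edgeR (0 of 13 tested). The log2FC was positive for 5 of 5 oligodendrocyte markers (median 1.03, 1 with an unadjusted p under 0.05), 4 of 4 tested astrocyte markers (1.51, 3) and 4 of 4 tested microglial markers (1.55, 1), and for 2 of 3 of endothelium and choroid plexus (2.205, 1). The median of all genes was 0.01 and that of 5 neuronal markers -0.01. Summed oligodendrocyte markers had a median of 393 per 1e6 other counts in MOR-LPS (242 to 3865), 354 in MOR-SAL, 318 in SAL-LPS and 367 in SAL-SAL. Summed microglial markers ran from 5.81 to 200.2 in MOR-LPS, with a median of 13.9, and had medians of 13.2, 8.78 and 12.3 in the other groups. The part of these cells in the Gm26917 difference was not tested.

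Gm42418 gave smaller values in the hippocampus. Its share ran from 0.167% through 0.760% to 2.67% in SAL-SAL, from 0.280% through 0.700% to 3.92% in MOR-SAL, from 0.241% through 0.894% to 4.10% in SAL-LPS and from 0.318% through 0.954% to 1.47% in MOR-LPS. The groups overlapped almost wholly. Its log2FC lay between -0.33 and 0.23 in the 4 contrasts, with adjusted p of at least 0.669 in edgeR. As background, the share of all hippocampal rows called was 0% for MOR-SAL vs SAL-SAL, 2.73% for MOR-LPS vs SAL-LPS, 2.55% for SAL-LPS vs SAL-SAL, 0.467% for MOR-LPS vs MOR-SAL and 2.35% for the difference of the LPS responses.

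In the hypothalamus, SAL-LPS libraries had the highest median of Gm26917 and the lowest of Gm42418. Gm26917 ran from 7.30% through a median of 18.7% to 36.8% in SAL-SAL (n = 11) and from 12.1% through 28.8% to 41.4% in SAL-LPS (n = 12). In MOR-SAL it ran from 7.10% through 13.3% to 24.9% (n = 14) and in MOR-LPS from 6.91% through 13.5% to 40.0% (n = 14). The groups overlapped. Its log2FC was 0.57 (SE 0.31, adjusted p = 0.412) for SAL-LPS vs SAL-SAL and -0.70 (SE 0.29, adjusted p = 0.208) for MOR-LPS vs SAL-LPS in edgeR. For MOR-SAL vs SAL-SAL it was -0.69 (SE 0.29, adjusted p = 0.190), and for MOR-LPS vs MOR-SAL 0.56 (SE 0.28, adjusted p = 0.240).

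Hypothalamic Gm42418 ran from 1.46% through a median of 2.79% to 6.70% in SAL-SAL and from 0.890% through 1.65% to 3.06% in SAL-LPS. In MOR-SAL it stayed between 1.37% and 2.92% (median 2.54%), and in MOR-LPS between 1.33% and 3.75% (median 1.91%). The SAL-LPS and SAL-SAL groups overlapped between 1.46% and 3.06%. The log2FC of SAL-LPS vs SAL-SAL was -0.77 (SE 0.21, edgeR adjusted p = 0.0689). It passed in DESeq2 (-0.81, adjusted p = 0.0198) and in edgeR with library size as the only scaling (-0.92, adjusted p = 0.0241).

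The other hypothalamic log2FC of Gm42418 were -0.48 for MOR-SAL vs SAL-SAL, 0.23 for MOR-LPS vs SAL-LPS and -0.06 for MOR-LPS vs MOR-SAL, with edgeR adjusted p of at least 0.195. Of all hypothalamic rows, 1.44% were called for MOR-SAL vs SAL-SAL, 1.03% for MOR-LPS vs SAL-LPS, 0.246% for SAL-LPS vs SAL-SAL, 6.27% for MOR-LPS vs MOR-SAL and 3.8% for the difference of the LPS responses. Neither ribosomal row was among them.

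In the PFC, both genes had their lowest medians in SAL-LPS. Gm26917 ran from 3.13% through 5.56% to 7.21% in SAL-SAL (n = 10) and from 1.56% through 3.35% to 7.58% in SAL-LPS (n = 10), and the fitted log2FC was -0.83 (SE 0.30, adjusted p = 0.180, edgeR). Gm42418 ran from 0.735% through 3.59% to 30.9% in SAL-SAL and from 0.351% through 0.948% to 13.1% in SAL-LPS, and the fitted log2FC was -1.93 (SE 0.71, adjusted p = 0.197, edgeR). These groups overlapped for both genes. The 95% interval of that difference was -3.33 to -0.53 on the log2 scale before any adjustment for the number of rows.

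Morphine-exposed PFC libraries overlapped with these groups, though the highest Gm26917 and the lowest Gm42418 share of the region were in MOR-SAL. Gm26917 took 2.06% to 11.9% in MOR-SAL (median 4.19%, n = 12) and 2.01% to 9.12% in MOR-LPS (median 4.65%, n = 16). Gm42418 took 0.314% to 17.3% in MOR-SAL (median 2.81%) and 0.406% to 17.6% in MOR-LPS (median 2.68%). The largest exposure contrast was -1.32 (SE 0.67, edgeR adjusted p = 0.514) for Gm42418 in MOR-SAL vs SAL-SAL. Of all PFC rows, those called were 0% for MOR-SAL vs SAL-SAL, 0.0046% for MOR-LPS vs SAL-LPS, 0% for SAL-LPS vs SAL-SAL, 0.0184% for MOR-LPS vs MOR-SAL and 1.78% for the difference of the LPS responses.

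In the striatum, no contrast of either gene had an unadjusted p under 0.05. Gm26917 medians were 5.78% in SAL-SAL (1.16% to 11.1%, n = 13), 4.61% in MOR-SAL (2.20% to 19.5%, n = 8), 4.23% in SAL-LPS (1.64% to 21.2%, n = 15) and 5.57% in MOR-LPS (1.13% to 13.8%, n = 18). Gm42418 medians lay between 0.602% and 0.779%. The largest log2FC was -0.65 (SE 0.41, 95% interval -1.45 to 0.16, edgeR adjusted p = 0.413) for Gm26917 in MOR-LPS vs MOR-SAL. The shares of striatal rows called were 0% for MOR-SAL vs SAL-SAL, 0% for MOR-LPS vs SAL-LPS, 0.0128% for SAL-LPS vs SAL-SAL, 1.39% for MOR-LPS vs MOR-SAL and 0.00854% for the difference of the LPS responses.

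**Figure D3:**
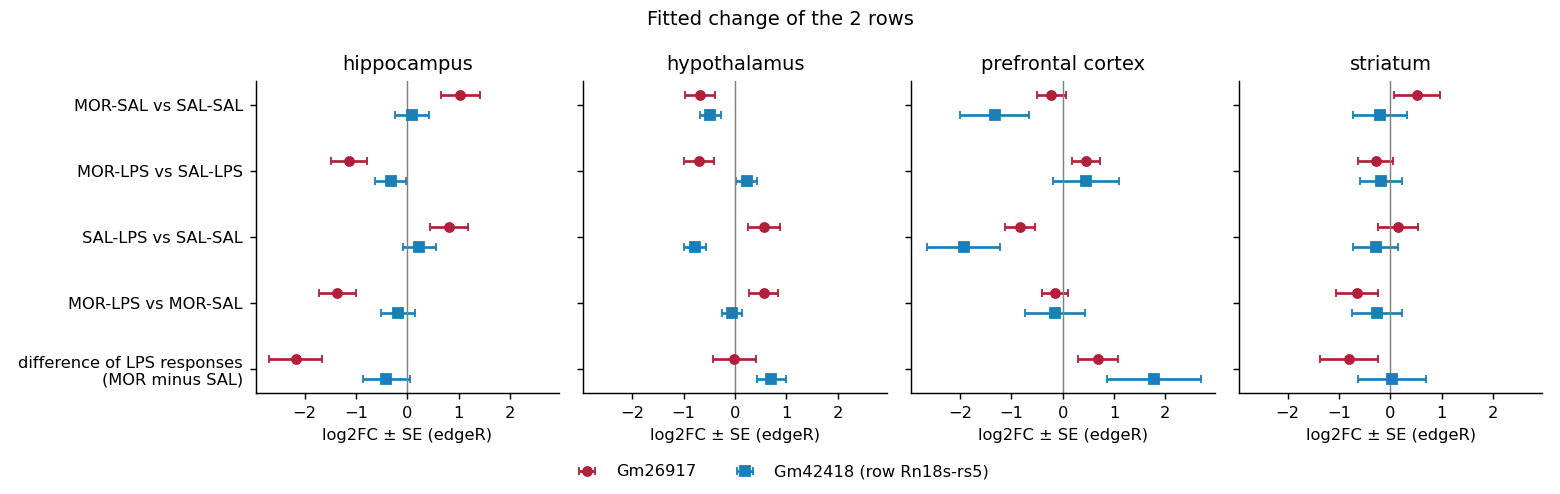
Fitted log2FC of Gm26917 (circles) and Gm42418 (squares, row Rn18s-rs5) in each region and contrast, with bars of 1 SE from edgeR. The hippocampal Gm26917 values run from 1.03 for MOR-SAL vs SAL-SAL to -2.17 for the difference of the LPS responses, and the bars are widest for Gm42418 in the PFC.

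A scaling-free view compared, library by library, the log2 ratio of both genes together to all other counts, by a two-sided permutation test adjusted over the 16 contrasts. The standard deviation of that ratio between libraries of 1 group was 0.88 in the hippocampus, 0.66 in the hypothalamus, 1.04 in the PFC and 1.01 in the striatum, so that 1 SD was a 1.58- to 2.05-fold change. In 1 contrast the difference was larger than this spread and passed the test. Hippocampal MOR-LPS libraries averaged -4.49 ± 0.68 (SD, n = 16) and MOR-SAL libraries -3.31 ± 1.00 (SD, n = 12), a difference of -1.18 or 0.441-fold (permutation p = 0.0011, adjusted p = 0.0176).

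That hippocampal difference did not pass in 3 other settings. The adjusted p was 0.0863 with group labels permuted within the first label numbers, as a replicate block (difference -1.09), and 0.0949 with means per first label number in an exact permutation test (-1.13). Without the libraries that go against their labelled sex the difference was -0.96 and the adjusted permutation p 0.0993. Leaving out single libraries moved it between -1.38 and -1.05, the smaller value without MOR-SAL animal 17-2. In the other 15 contrasts the adjusted permutation p was at least 0.0595, and the striatal differences lay between -0.18 and 0.03.

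The ratio of Gm26917 to Gm42418 changed in the hypothalamus. Its log2 value averaged 4.04 ± 0.63 (SD, n = 12) after LPS alone. Without either treatment it was 2.57 ± 1.23 (SD, n = 11), and after both 2.91 ± 1.02 (SD, n = 14). The SAL-LPS libraries lay between 2.698 and 4.99, and the SAL-SAL libraries between 0.12 and 4.65, so the ranges overlapped. SAL-LPS was above SAL-SAL by 1.47, or 2.77-fold (permutation p = 0.0011, adjusted p = 0.0176). MOR-LPS was below SAL-LPS by -1.13, or 0.457-fold (permutation p = 0.00317, adjusted p = 0.0254). With means per first label number in an exact permutation test the differences were 1.16 and -1.17, and the adjusted p 0.167 and 0.138. Neither differed in direction when any single library was left out (1.23 to 1.68, and -1.28 to -1.01). Mitochondrial rows took a median of 0.0539% of the counts in SAL-LPS (0.0420% to 0.367%), 0.261% in SAL-SAL (0.0209% to 1.01%) and 0.0819% in MOR-LPS (0.0182% to 0.814%). In MOR-LPS vs SAL-LPS of that region, where 1.03% of rows were called, 5 of 5 astrocyte markers had a positive log2FC and an unadjusted p under 0.05 (median 1.40), of which Slc1a2, a glutamate transporter, was called (1.27, edgeR adjusted p = 0.0346, and 0.0865 after filterByExpr), and 5 of 5 oligodendrocyte markers were positive (median 0.88, 2 with an unadjusted p under 0.05). In SAL-LPS vs SAL-SAL, where 0.246% of rows were called, Ttr of the choroid plexus was lower (-5.88, edgeR adjusted p = 0.00906, and 0.0673 with the replicate block), and 0 of 5 oligodendrocyte markers were positive (median -0.88). The part of mitochondrial rows and of these cells in the ratio was not tested.

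In the other regions the ratio of the 2 genes passed in 0 of 12 contrasts by that permutation test, of which 2, both hippocampal, had an unadjusted p under 0.05. The larger was -1.23 for MOR-LPS vs MOR-SAL (permutation p = 0.0114, adjusted p = 0.0609). Mature rRNA, spacer and partial copies cannot be told apart in these counts, so the ratio is one of reads counted on 2 neighbouring rows. In sorted nuclei, fewer cells of a type and less RNA per cell cannot be told apart either.

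Markers of other cell types moved in some of the same comparisons. In hypothalamic MOR-LPS vs MOR-SAL, 5 of 5 oligodendrocyte, 4 of 5 astrocyte and 2 of 5 microglial markers were higher in edgeR, among them Gfap, an astrocyte filament gene, with a log2FC of 5.21 (SE 0.74, adjusted p = 1.36e-05) and Mobp, a myelin gene, with 2.43 (SE 0.45, adjusted p = 0.00064). Of all rows, 6.27% were called there. P2ry12, a microglial receptor, was at -1.01 (SE 0.38, edgeR adjusted p = 0.0894). In the hypothalamic difference of the LPS responses, where 3.8% of rows were called, 5 oligodendrocyte, 2 astrocyte and 1 microglial marker were higher, as was Ttr of the choroid plexus, and after filterByExpr 1 of each list was. After filterByExpr 3 of the 5 oligodendrocyte markers there were called. In hippocampal MOR-LPS vs SAL-LPS, with 2.73% of rows called, 1 of 5 oligodendrocyte and 1 of 4 tested microglial markers were higher, and after filterByExpr 0 of either list were. The microglial one was Csf1r (edgeR adjusted p = 0.153 after filterByExpr). Summed astrocyte markers ran from 282 to 1717 per 1e6 other counts in hippocampal MOR-LPS and from 248 to 621 in MOR-SAL. Summed oligodendrocyte markers ran from 242 to 3865 and from 194 to 972 in the same groups. In the hypothalamus, summed oligodendrocyte markers ran from 174 to 3988 in SAL-LPS and from 102 to 7757 in SAL-SAL. Over the 16 contrasts, 1.09% of tests on all other genes were called. Of the marker tests, 6 were higher and 1 lower of 80 for oligodendrocytes, 7 and 1 of 68 for astrocytes, 4 and 0 of 68 for microglia, and 0 and 2 of 48 for endothelium and choroid plexus. The part of these cells in the shares of the ribosomal rows was not tested.

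Depth moved with the share in 2 regions. In the striatum, the log2 ratio of the pair to all other counts fell with total count (Pearson r -0.561, permutation p = 4e-05, Spearman rho -0.636, permutation p = 1e-05, the smallest that 100000 permutations can give, n = 54). In the PFC the relation was weaker (r -0.441, permutation p = 0.0017, rho -0.443, permutation p = 0.00185, n = 48). Adjusted over 8 relations, the rho p were 8e-05 and 0.0074. Without the 2 libraries farthest from the median total, r was -0.671 and -0.434. Without the low-depth libraries the PFC values were r -0.351 (adjusted permutation p = 0.0616) and rho -0.356 (adjusted permutation p = 0.0466). In the hippocampus (r -0.105, rho -0.211) and hypothalamus (r -0.095, rho -0.050) neither relation passed, with adjusted permutation p of at least 0.191 for rho. Its part in the group differences was not tested.

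Animals high in one region were not shown to be high in another. Over 35 to 42 animals per pair of regions, the ratio in one region and in another correlated with rho from -0.121 to 0.305 and r from -0.113 to 0.311. None of the 6 pairs passed (adjusted permutation p of at least 0.373 for rho and 0.345 for r), and the highest value, between hippocampus and hypothalamus, fell to r = 0.181 without the 2 libraries farthest from the median. Taken from group means, that pair of regions gave r 0.353 and rho 0.381 (permutation p = 0.0182, adjusted p = 0.0966). Without the libraries that go against their labelled sex it gave r 0.365 (permutation p = 0.0311, adjusted p = 0.187) and rho 0.346.

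Some other genes followed the pair over libraries. Among 10122 genes with a mean of at least 5 CPM in every region, CPM recomputed without the ribosomal rows, likeness was the Spearman rho with the summed pair per 1e6 other counts, over the 48 to 55 libraries of each region. These rho are descriptions with no test, and all quantities share each library's total. Yam1 was most alike, with rho of 0.645 in the hippocampus, 0.712 in the hypothalamus, 0.654 in the PFC and 0.609 in the striatum. It was also an abundant row, at a median of 6838 per 1e6 other counts in the hypothalamus. After it came Tmem132a (lowest rho 0.497), Gm24187 (0.444), Sfpq (0.388), which codes for a paraspeckle splicing factor, and Cttn (0.345), which codes for the actin-binding protein cortactin.

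The genes that fell most evenly as the pair rose were Hmgcll1 (highest rho -0.372), 5330417C22Rik (-0.326), Pak3 (-0.313), a kinase of the actin cytoskeleton, Fars2 (-0.294), the mitochondrial phenylalanine tRNA synthetase, and Exoc4 (-0.290), an exocyst subunit. Only 8 genes had a rho above 0.3 in all regions and 3 a rho below -0.3. Without the low-depth libraries, 8 of these 10 named genes stayed among the 5 most alike or least alike, the exceptions being Cttn and Exoc4. The median gene had a rho of 0.024, -0.069, -0.055 and 0.237 in the hippocampus, hypothalamus, PFC and striatum.

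Lars2, the mitochondrial leucine tRNA synthetase, followed Gm42418 in particular. Its rho with Gm42418 was 0.742 in the hippocampus, 0.672 in the hypothalamus, 0.786 in the PFC and 0.730 in the striatum, and its rho with Gm26917 was lower in each region (0.367, 0.129, 0.282 and 0.525). Lars2 ran from 139 to 72174.9 per 1e6 other counts in the PFC, the top value in SAL-SAL animal 5-1, whose Gm42418 share was 14.0%. In the hippocampus it ran from 67.2 to 1592, around a median of 201. The Lars2 transcript shared 72 bases at 98.6% identity with Gm15564 and matched neither ribosomal row.

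Mitochondrial rRNA behaved likewise. The rho of mt-Rnr2, the large-subunit rRNA of mitochondria, with Gm42418 was 0.576, 0.591, 0.406 and 0.631 in the hippocampus, hypothalamus, PFC and striatum, and with Gm26917 it was 0.150, -0.347, 0.228 and 0.281. For mt-Rnr1, whose small-subunit letters are shown above, the rho with Gm42418 was 0.394, 0.539, 0.274 and 0.632. Yam1 went the other way in 3 regions, with a higher rho with Gm26917 (0.665, 0.705 and 0.637 in the hippocampus, hypothalamus and striatum) than with Gm42418 (0.262, 0.166 and 0.496). In the PFC that order was turned (0.480 and 0.669). No test of these orders was made.

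**Figure D4:**
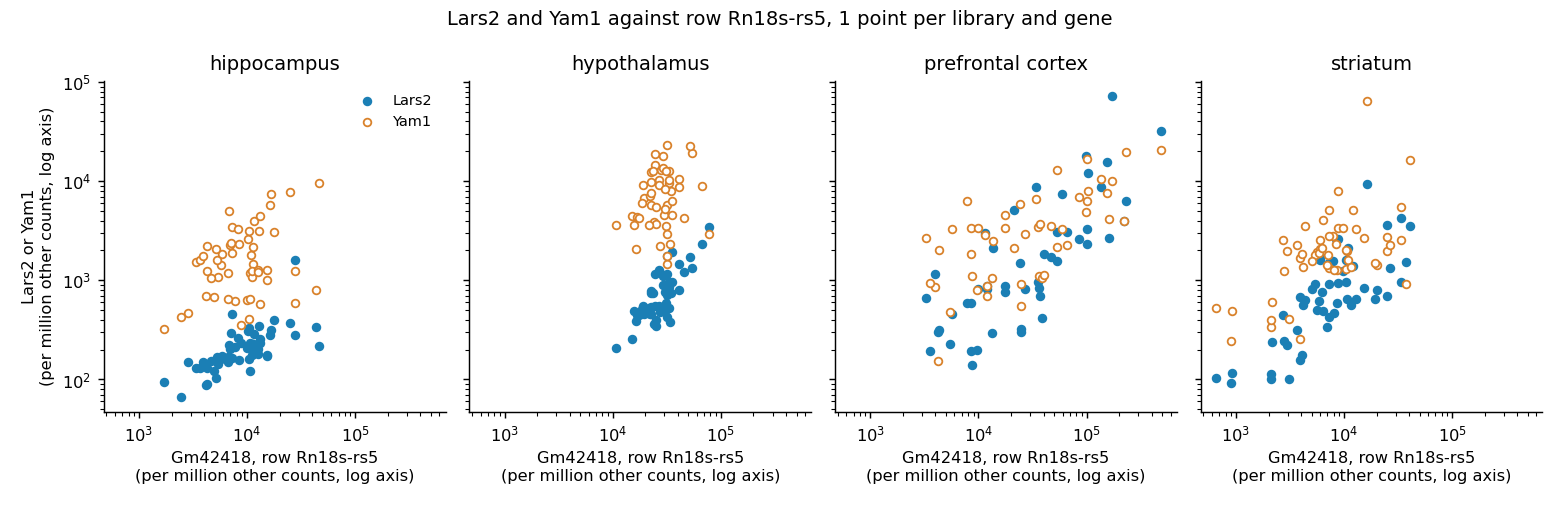
Lars2 (filled) and Yam1 (open) against Gm42418 (row Rn18s-rs5), all per 1e6 other counts on log axes, with 1 point per library and gene. Lars2 rises with Gm42418 in each region, with rho from 0.672 in the hypothalamus to 0.786 in the PFC.

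Jarid2, which codes for a Polycomb complex subunit, tracked Gm42418 in the PFC (rho 0.869) and striatum (0.658) and less in the hippocampus (0.372) and hypothalamus (0.041). The list called rRNA-like rows includes Jarid2 and Camk1d, though no transcript of either matched the 2 ribosomal rows (BLAST). Over the 16 contrasts Jarid2 was the 1 call among the rRNA-like rows, at a log2FC of -1.67 (SE 0.32, edgeR adjusted p = 0.00576) in striatal MOR-LPS vs MOR-SAL. With the first label number as a replicate block it was not called (-0.90, edgeR adjusted p = 0.344), and DESeq2 gave it no p. Over 16 contrasts and 11 rows tested at most, 0 rRNA-like tests were called higher and 1 lower of 164, beside 1.09% of all other genes over those contrasts and 1.39% of rows in the striatal one. Lars2 had its smallest adjusted p in hypothalamic MOR-SAL vs SAL-SAL (log2FC -0.97, SE 0.28, adjusted p = 0.0524, edgeR).

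Genes that make and process rRNA showed few calls. Of 256 tests on 16 genes of RNA polymerase I transcription, 0 were called in edgeR, with the smallest adjusted p for Tbp, a general transcription factor (striatal MOR-LPS vs MOR-SAL, log2FC 0.58, SE 0.16, adjusted p = 0.0528), Ubtf, which opens rDNA chromatin (hypothalamic SAL-LPS vs SAL-SAL, -0.64, SE 0.19, adjusted p = 0.0791), and Polr1e, a polymerase I subunit (hypothalamic MOR-LPS vs MOR-SAL, -0.72, SE 0.27, adjusted p = 0.0897). Of 528 tests on 33 rRNA processing genes, 1 was higher and 0 lower: Rrp9, which binds the U3 RNA, in hypothalamic MOR-LPS vs MOR-SAL (0.73, SE 0.22, edgeR adjusted p = 0.0329, 0.0655 without the libraries that go against their labelled sex, and 0.256 with the replicate block). Of 100 tests on 7 rDNA silencing genes 0 were called, the smallest adjusted p being that of Rrp8 (hippocampal MOR-LPS vs SAL-LPS, 1.64, SE 0.49, edgeR adjusted p = 0.0503). In the hypothalamic difference of the LPS responses, 1 of 16 polymerase I genes and 1 of 11 rRNA-like rows were higher, Ubtf (0.89, SE 0.25, edgeR adjusted p = 0.0275) and Camk1d (1.28, SE 0.36, edgeR adjusted p = 0.0256), named after their values were seen, where 3.8% of rows were called. After filterByExpr neither passed (edgeR adjusted p = 0.0523 and 0.0687), nor with the replicate block (0.357 and 0.271). Over all other genes and the 16 contrasts without that difference, 1.09% of 384328 tests were called.

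Abundant nuclear noncoding RNAs gave 4 higher and 0 lower calls of 132 tests over the 16 contrasts, beside the 1.09% of all other genes. In hypothalamic MOR-LPS vs MOR-SAL, Neat1, the scaffold RNA of paraspeckles, rose by a log2FC of 2.79 (SE 0.48, edgeR adjusted p = 0.000288) and Malat1, an RNA of nuclear speckles, by 0.61 (SE 0.18, edgeR adjusted p = 0.0293), in a contrast with 6.27% of all rows called. The other 2 calls were of Neat1 in MOR-LPS vs MOR-SAL, in the hippocampus (1.95, edgeR adjusted p = 0.0223) and striatum (3.03, edgeR adjusted p = 0.0329). With the replicate block Neat1 was called in the hypothalamus (2.35, edgeR adjusted p = 0.000283), but not in the hippocampus or striatum (edgeR adjusted p = 0.136 and 0.280), nor was Malat1 in the hypothalamus (0.52, edgeR adjusted p = 0.128). Gm26917 in the same contrast was at 0.56 (adjusted p = 0.240). In the differences of the LPS responses, named after their values were seen, Malat1 was 1 lower call of 8 in the hippocampus (-1.12, SE 0.32, edgeR adjusted p = 0.0413), where 2.35% of rows were called, and Neat1 1 higher call of 9 in the hypothalamus (2.92, SE 0.68, edgeR adjusted p = 0.00873), where 3.8% were. The Malat1 call was lost after filterByExpr (-1.13, edgeR adjusted p = 0.447), in DESeq2 (adjusted p = 0.164) and without the libraries that go against their labelled sex (-0.48, edgeR adjusted p = 0.442), and the Neat1 call passed in these (edgeR adjusted p = 0.0373 and 0.0201, DESeq2 adjusted p = 0.0104) but not with the replicate block (2.598, edgeR adjusted p = 0.0509). The Malat1 call was not made there either (edgeR adjusted p = 0.565). Neuronal markers had 0 of 80 tests called.

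Dropping the pair rescales every other gene. CPM values of other genes rose by a factor of 1.01 to 1.74 per library when both rows were left out of the total, with medians of 1.07 in the hippocampus, 1.22 in the hypothalamus, 1.09 in the PFC and 1.06 in the striatum. In hypothalamic SAL-LPS animal 1-0, Snap25, a synaptic vesicle fusion gene, went from 951 to 1660 CPM, and Gapdh, a glycolysis gene, from 327 to 571 CPM. In the PFC library of SAL-SAL animal 10-3, Rbfox3, which codes for NeuN itself, went from 2538 to 4032 CPM.

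The spread of other genes moved with that factor. The coefficient of variation over libraries was lower without the pair for 66.7% of genes in the hippocampus, 69.7% in the hypothalamus and 73.4% in the PFC, but for 37.5% in the striatum. The median coefficient went from 48.9% to 47.6% in the hypothalamus and from 36.8% to 37.6% in the striatum, so the change was small beside the spread itself. For Snap25 it went from 35.7% to 31.7% in the hypothalamus, and for Meg3 from 26.1% to 30.4%.

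Most genes of the hypothalamus ran against the pair in CPM. In the hypothalamus, the CPM of 93.0% of 13107 genes had a negative rho with the pair (median -0.307), and without the pair in the total 61.3% did (median -0.059). In the PFC the share went from 78.8% to 58.8%, in the hippocampus from 68.8% to 45.0% and in the striatum from 37.7% to 24.9%. For Snap25 in the hypothalamus rho went from -0.632 to -0.377, and for Gapdh from -0.482 to -0.195.

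Fold changes between groups were fitted with and without the pair. With total counts as the only scaling, leaving out the pair moved the median log2FC of other genes by up to 0.158, in hypothalamic MOR-LPS vs SAL-LPS, where the median was 0.16 with the pair and 0.00 without it. With TMM the largest shift of a median over all contrasts was 0.02 and the largest of any 1 gene 0.11. The relative scale of single libraries moved by -0.08 to 0.11 with TMM and by -0.14 to 0.54 with library size. In the PFC library of SAL-SAL animal 10-3 the TMM factor was 0.655 with the pair and 0.914 without it.

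**Figure D5:**
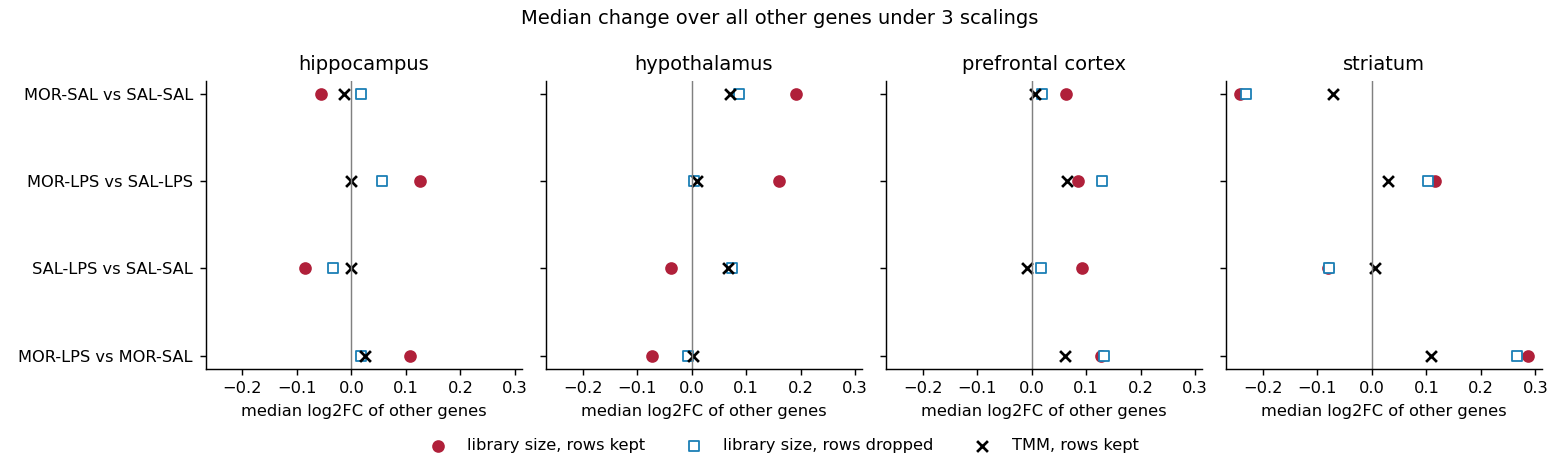
Median log2FC over all other genes in each region and contrast, scaled by library size alone with the 2 rows kept (filled circles) or dropped (open squares), and with TMM and the rows kept (crosses). In hypothalamic MOR-LPS vs SAL-LPS the median is 0.16 with the rows kept, 0.00 with them dropped and 0.01 with TMM.

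Of the 6 reference genes, 1 of 96 tests over the 16 contrasts was called, beside 1.09% of tests on all other genes. It was that of Malat1 in hypothalamic MOR-LPS vs MOR-SAL, where 6.27% of rows were called. With the replicate block it was not called (edgeR adjusted p = 0.128). The number of other genes called was compared with and without the pair under TMM, first without filterByExpr. For hypothalamic MOR-LPS vs MOR-SAL, 1809 other genes were called with the pair and 1824 without it, 1795 in both. In MOR-LPS vs SAL-LPS of that region 298 and 268 were called, 267 in both, and in MOR-SAL vs SAL-SAL 416 and 428, 411 in both. In striatal MOR-LPS vs MOR-SAL the counts were 325 and 320, with 315 in both. For the hypothalamic difference of the LPS responses they were 1098 and 1093, with 1087 in both, but after filterByExpr 112 with the pair and 69 without it, 69 in both.

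The counts hold rows of low count to differing degrees. Genes that averaged under 2 counts per library were 188 of the 298 in hypothalamic MOR-LPS vs SAL-LPS, 774 of the 1809 in MOR-LPS vs MOR-SAL and 138 of the 416 in MOR-SAL vs SAL-SAL, and 55 of the 325 in striatal MOR-LPS vs MOR-SAL. After filterByExpr, in the first of these 3 were called with the pair and 3 without it, the same 3. DESeq2 called 50 there. In MOR-LPS vs MOR-SAL, 633 and 592 genes were called after filterByExpr, 571 in both, and in MOR-SAL vs SAL-SAL 170 and 156, 154 in both. In striatal MOR-LPS vs MOR-SAL, filterByExpr left 268 and 278 calls, 253 in both. Without the libraries that go against their labelled sex, hypothalamic MOR-LPS vs SAL-LPS had 2 calls in place of 298 and MOR-SAL vs SAL-SAL 188 in place of 416. Without the low-depth libraries they had 66 and 545.

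With library size as the only scaling, counts of calls moved with the pair in other contrasts. In hypothalamic MOR-LPS vs SAL-LPS, 416 genes were called with the pair, 250 of them higher, and 252 without it, 98 of them higher. After filterByExpr the same comparison gave 25 calls with the pair, 23 of them higher, and 3 without it, 1 of them higher. In hypothalamic SAL-LPS vs SAL-SAL the counts were 119 with and 61 without the pair, and 47 and 18 after filterByExpr. In striatal MOR-LPS vs SAL-LPS they were 54 and 0, and 13 and 0 after filterByExpr. For the hypothalamic difference of the LPS responses they were 1106 and 1091, and 95 and 90 after filterByExpr.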

How the data were processed

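RNA of NeuN+ nuclei was sequenced on paired ends after a modified Smart-seq3 protocol with tagmentation. Per the labels and the paper's methods, the authors trimmed reads with Trim Galore 0.6.7, aligned them to mm10 with STAR 2.7.10a and counted reads per gene with STAR, with HTSeq 0.12.4 as a check. The authors deposited raw counts (reads per gene, not normalized) and CPM (counts scaled to a library total of 1e6) for each region. The deposited CPM leave out 37 mitochondrial rows and equal the counts over the remaining total (largest difference 2.9e-11), so the raw counts were used. Every column was mapped to a library by its label.

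Members and lists were chosen with earlier results of these data known. Named genes were the 2 ribosomal rows, rows with a median share of at least 1%, the 5 genes most and the 5 least alike, the 3 genes per list with the smallest adjusted p, and 6 reference genes. Gene lists were taken for RNA polymerase I transcription, rRNA processing, rDNA silencing, rRNA-like rows, nuclear noncoding RNAs, and markers of neurons, oligodendrocytes, astrocytes, microglia, endothelium and choroid plexus.

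For each region, rows with a total count above 10 were fitted in edgeR 4.0.16 (R 4.3.3) with TMM, estimateDisp, glmQLFit at default settings and glmQLFTest on group and sex, with Benjamini-Hochberg adjustment and a threshold of 0.05. The study's methods fit the same terms in DESeq2 1.40.2. On simulated counts the edgeR fit recovered most changed genes but also called unchanged genes of low count, far fewer of them after filterByExpr, so counts are given under both. Shares carry exact 95% binomial intervals. Ratios were compared by two-sided permutation tests (exact where a group had under 10 libraries, otherwise 100000 permutations). SciPy 1.17.1, limma 3.58.1, DESeq2 1.42.0 and BLAST 2.17.0 were used. A floor of 3 counts applies to a count of 0.

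Alternatives were DESeq2, DESeq2's size factors, library size only, scaling without the 2 rows, filterByExpr, no filter, no sex term, limma-voom with a correlation within first label numbers, means per first label number, that number as a replicate block, mitochondrial rows left out, percent shares, and leaving out the 8 low-depth libraries, single first numbers or single libraries. Chosen after seeing the data were leaving out the 9 libraries against their labelled sex (4 Y-linked genes, 10 CPM), filterByExpr with other scalings or without the 2 rows, and animals without the 2 farthest libraries. The first label number is that of a replicate name such as 1-0. Neither labels nor paper tie it to a litter, and the paper's litter count differs. No number held both exposures, so the block could be fitted for LPS responses only. The correlation within numbers in limma-voom was -0.00297, -0.0489, 0.00353 and 0.0288 in the hippocampus, hypothalamus, PFC and striatum. Positions and sequences are from GENCODE M21 and RefSeq tables of GRCm38. The study's annotation was GENCODE M25.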

Additional observations from a re-analysis of the deposited data

Results flagged for a closer look

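Among PFC groups of 10 libraries, 2 libraries stood apart from their group on the percent scale. In SAL-SAL, animal 10-3 had 30.88% of its counts on Gm42418 (row Rn18s-rs5), against 13.97% in the next library, and a summed share of 37.03% against 18.85%. In SAL-LPS, animal 3-3 had 13.08% on Gm42418, against 5.36% in the next library. Each gap was above Dixon's 95% critical value (0.561, 0.558 and 0.607 of the group's range), and chance alone gives such a gap in about 1 in 20 groups. Without animal 10-3 the PFC difference of SAL-LPS from SAL-SAL in the log2 ratio of the pair to all other counts was -1.03 in place of -1.28, and without animal 3-3 it was -1.52.

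The LPS response of hippocampal Gm26917 differed between morphine and saline exposure by -2.17 on the log2 scale (edgeR interaction, adjusted p = 0.0141). The response was 0.81 after saline and -1.36 after morphine. The call was lost after filterByExpr (edgeR adjusted p = 0.298), in DESeq2 (adjusted p = 0.201), with the first label number as a replicate block (edgeR adjusted p = 0.349) and without the libraries that go against their labelled sex (edgeR adjusted p = 0.0860).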

How the results depend on the processing

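Under other settings, 676 values kept their direction and side of the threshold (counts: within 1.5 times). The cause of the others was not tested, apart from the fewer rows or libraries that some settings hold. Differences are log2 values, and adjusted p are from edgeR unless another tool is named.

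The hippocampal difference of LPS responses in Gm26917 lost its call with filterByExpr (-2.159), filterByExpr and library size (-1.989), without libraries against their sex label (-1.652), in limma-voom (-2.147), in DESeq2 (-2.183) and with the first label number as a replicate block (-2.156). Other Gm26917 contrasts of that region passed with library size (MOR-LPS vs SAL-LPS -1.05, adjusted p = 0.0398) or no sex term (-1.155, and -1.403 for MOR-LPS vs MOR-SAL). Hypothalamic Gm42418 in SAL-LPS vs SAL-SAL passed with library size (-0.9239, after filterByExpr -0.924), DESeq2's size factors (-0.8108) and DESeq2 (-0.8111).

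Values near 0 changed sign. Gm42418 in hippocampal MOR-SAL vs SAL-SAL was -0.01355 with library size, -0.01356 after filterByExpr and -0.02879 without libraries against their sex label, which also gave 0.02697 for MOR-LPS vs MOR-SAL. In hypothalamic MOR-LPS vs MOR-SAL it was 0.0158 with DESeq2's size factors, 0.01582 in DESeq2 and 0.08915 in limma-voom. The hypothalamic difference of LPS responses in Gm26917 was 0.05684 with DESeq2's size factors, 0.009096 with filterByExpr, 0.009888 with no filter, 0.03548 without low-depth libraries, 0.008767 without libraries against their sex label, 0.05095 in limma-voom, 0.05675 in DESeq2 and 0.04298 with the replicate block. That of striatal Gm42418 was -0.01352 with filterByExpr, -0.02143 with no sex term, -0.02743 in limma-voom and -0.1447 with the replicate block, which put PFC Gm26917 in MOR-LPS vs MOR-SAL at 0.005151.

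The ratio of the pair to other counts in hippocampal MOR-LPS vs MOR-SAL lost its call with means per first label number (-1.132), without libraries against their sex label (-0.9557) and with the replicate block (-1.085). That of Gm26917 to Gm42418 in the hypothalamus did with means per first label number (-1.169 and 1.16). Signs turned in PFC MOR-LPS vs MOR-SAL (-0.08517 without low-depth libraries, -0.1439 without those against their sex label), striatal MOR-SAL vs SAL-SAL (-0.008143, means per first label number) and striatal SAL-LPS vs SAL-SAL (0.4155 percentage points on the percent scale, 0.0207 with the block). The block changed no other call of the 2 genes or their ratio to other counts, but moved calls among other genes. In SAL-LPS vs SAL-SAL they went from 563 to 0 in the hippocampus and from 71 to 4 in the hypothalamus, and in MOR-LPS vs MOR-SAL from 103 to 1 in the hippocampus, 1809 to 362 in the hypothalamus, 4 to 13 in the PFC and 325 to 30 in the striatum. For the difference of LPS responses they went from 518 to 0, 1098 to 51, 387 to 2 and 2 to 0 in that order. Hippocampal MOR-LPS vs MOR-SAL had 20 calls without low-depth libraries and 24 without those against their sex label, in place of 103, and without low-depth libraries hypothalamic SAL-LPS vs SAL-SAL had 109 in place of 71 and PFC MOR-LPS vs SAL-LPS 2 in place of 1. Either setting gave 2 calls in place of 4 in PFC MOR-LPS vs MOR-SAL.

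The Spearman correlation of the pair's ratio with genes detected passed in the hippocampus (-0.3382 without the 2 farthest libraries and without low-depth ones) and the striatum (-0.3266, without the 2 farthest), and turned in the hypothalamus (0.007599, without low-depth libraries) and PFC (0.08159 without the 2 farthest, 0.04598 without low-depth ones). Between regions it turned for hippocampus and PFC (-0.1169, without libraries against their sex label) and for PFC and striatum (-0.02373 without the 2 farthest, -0.07787 from group means, -0.02338 without libraries against their sex label).

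Calls among other genes after filterByExpr, with and without the pair, in the hippocampus were 1 and 1 for MOR-LPS vs SAL-LPS, 2 and 2 for SAL-LPS vs SAL-SAL, 4 and 4 for MOR-LPS vs MOR-SAL, and 0 and 0 for the difference of LPS responses. In the hypothalamus they were 170 and 156 for MOR-SAL vs SAL-SAL, 3 and 3, 14 and 13, 633 and 592, and 112 and 69 in the same order. In the PFC they were 0 and 0 for MOR-LPS vs SAL-LPS, 1 and 1 for SAL-LPS vs SAL-SAL and 2 and 2 for MOR-LPS vs MOR-SAL. For the difference of LPS responses they were 0 and 0 in the PFC and 0 and 0 in the striatum. With library size, hippocampal MOR-LPS vs MOR-SAL had 18 and 53, hypothalamic SAL-LPS vs SAL-SAL 119 with the pair, striatal MOR-LPS vs SAL-LPS 54 with it, and the striatal difference of LPS responses 236 and 149.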

Other observations

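By labelled sex, the summed share had medians of 5.79% in female and 6.56% in male hippocampal libraries (n = 28 and 27), and 17.7% and 18.9% in the hypothalamus (n = 26 and 25). In the PFC the Gm42418 share had medians of 1.49% in females and 3.59% in males (n = 26 and 22), with ranges of 0.314% to 30.9% and 0.405% to 17.6%. These values were not tested, and 9 libraries go against their labelled sex.

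The share of mitochondrial rows had a median of 0.0924% over all libraries and reached 2.57% in the striatal SAL-SAL library of animal 4-3, the only striatal library in which Gm42418 outranked Gm26917 (3.48% and 3.28%). In PFC SAL-SAL animal 5-1, which had the most Lars2, mitochondrial rows took 1.76%.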
